A study of Mus musculus with 15 samples.

Results

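The fatty acid oxidation and ketone genes are 29 genes whose products carry fatty acids into mitochondria, shorten them there or in peroxisomes, make or use ketone bodies, or set how much fat is burned. They were chosen by gene symbol, and all 29 were found among the 44788 symbols of the deposited tables and reached the limit for testing of at least 1 FPKM (fragments scaled to transcript length and to the mapped fragments of the library) at 1 or more timepoints, as did 16902 symbols in all. Whole stomachs of C57BL/6 mice were sequenced at 15 timepoints with 1 library each, from E12.5, where E stands for embryonic day, to week 8 after birth (W8). The timepoints were read as 3 periods. The embryonic period held the 7 daily timepoints from E12.5 to E18.5, the early postnatal period held days 1, 3 and 5 (D1, D3 and D5) and weeks 1 and 2 (W1 and W2), and the late postnatal period held weeks 3, 6 and 8 (W3, W6 and W8). With no replicate libraries here, the timepoints of a period served as its replicates, and their spread holds change over time as well as differences between animals. No animal was treated or genetically altered. Stomachs of several embryos were combined up to E17.5 per the study's reporting notes, which also state replicates for each timepoint, although the RNA data used here hold 1 library each. Animals older than 2 weeks were male while younger animals were taken without regard to sex, so sex and late postnatal age cannot be told apart. The labels do not state what the animals ate, and W3 is around the age of weaning.

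Long-chain fatty acids enter the mitochondrial matrix through the carnitine shuttle, in which CPT1 loads the acyl group onto carnitine, SLC25A20 exchanges it across the inner membrane and CPT2 returns it to coenzyme A. Each turn of the beta-oxidation spiral then runs through an acyl-CoA dehydrogenase, a hydratase, a hydroxyacyl-CoA dehydrogenase and a thiolase, and the electrons taken by the dehydrogenases pass through the electron transfer flavoprotein to ubiquinone. Peroxisomes carry out a parallel spiral on very long and unusual chains. Milk is rich in fat, and suckling mammals are known for high fat oxidation and circulating ketone bodies, which tissues use through OXCT1.

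A pair of features of these libraries bears on every value. The share of summed FPKM held by the 10 highest genes went from 11.2% at E14.5 to 53.2% at W6, and the median-ratio factor fell from 1.27 to 0.570. This factor is the median over genes of the level in a library relative to the geometric mean of all libraries. The median tested gene differed by -0.22 on the log2(FPKM + 1) scale between the embryonic and the early postnatal period. Between the early and the late postnatal period it differed by -0.42. Whether these shifts came from the growing share of the highest genes was not tested. Differences are set beside these medians or beside values after median-ratio scaling. The libraries also differed in the levels of cell type markers. At D1 the liver genes Alb and Afp stood at 461 and 186 FPKM, against 14.6 and 8.27 FPKM at E18.5, and at W8 the forestomach keratins Krt5 and Krt13 were at 1.26 and 5.96 FPKM, against 27.3 and 273 FPKM at W6. Stomach identity was clear in the late libraries, with parietal cell Atp4a at 1519, 2213 and 3289 FPKM and chief cell Pgc at 86122, 122459 and 151321 FPKM at W3, W6 and W8. In whole organs, fewer cells of a type and less RNA per cell cannot be told apart.

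Most members were higher in the early postnatal than in the embryonic period. A difference across birth is here the early postnatal mean minus the embryonic mean, which includes change before birth, and a difference at weaning age is the late postnatal mean minus the early postnatal mean. Of the 29 genes, 24 were higher across birth and 0 were lower at an adjusted p under 0.01 (limma on log2(FPKM + 1), Benjamini-Hochberg adjustment over all tested genes), while 10.8% of all tested genes were higher and 30.6% lower. At an unadjusted p under 0.05, 27 members differed, as did 10776 of the 16902 tested genes. The median difference of the 29 members was 0.77 on the log2 scale against -0.22 for all tested genes. After median-ratio scaling 26 members were higher, with a median of 1.04, where 17.0% of all tested genes were higher and 15.0% lower. Without D1, the library with the highest Alb and Afp, 22 members were higher. The count fell to 17 when W1 or W2 was left out, and 16 of the 24 genes passed whichever single timepoint was left out.

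From the early to the late postnatal period 8 members changed, in shares near those of all tested genes. Oxct1 rose, 7 members fell (Slc25a20, Hadha, Eci2, Acaa1b, Ehhadh, Plin2 and Acot2), and 21 did not pass the test, while 2.57% of all tested genes were higher and 28.9% lower. The members' median difference of -0.21 lay above the median of -0.42 over all tested genes. After median-ratio scaling, by which 2112 of the 16902 tested genes were higher and 7.72% lower, Oxct1 was still higher and Eci2, Plin2 and Acot2 were still lower, whereas Hadha and Slc25a20 came to differences of 0.02 and 0.06 and Acaa1b and Ehhadh to -0.96 and -0.90 with adjusted p = 0.0124 and 0.089. Leaving out W6 or W8 brought the 7 falls to 4. Over the whole course, from the embryonic to the late postnatal period, 14 members were higher (10.6% of all tested genes) and 3 were lower (54.6% of all tested genes), namely Eci2, Plin2 and Acot2. Across the 3 periods together, 26 of the 29 members differed by limma's F test, as did 67.9% of all tested genes.

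**Figure D1:**
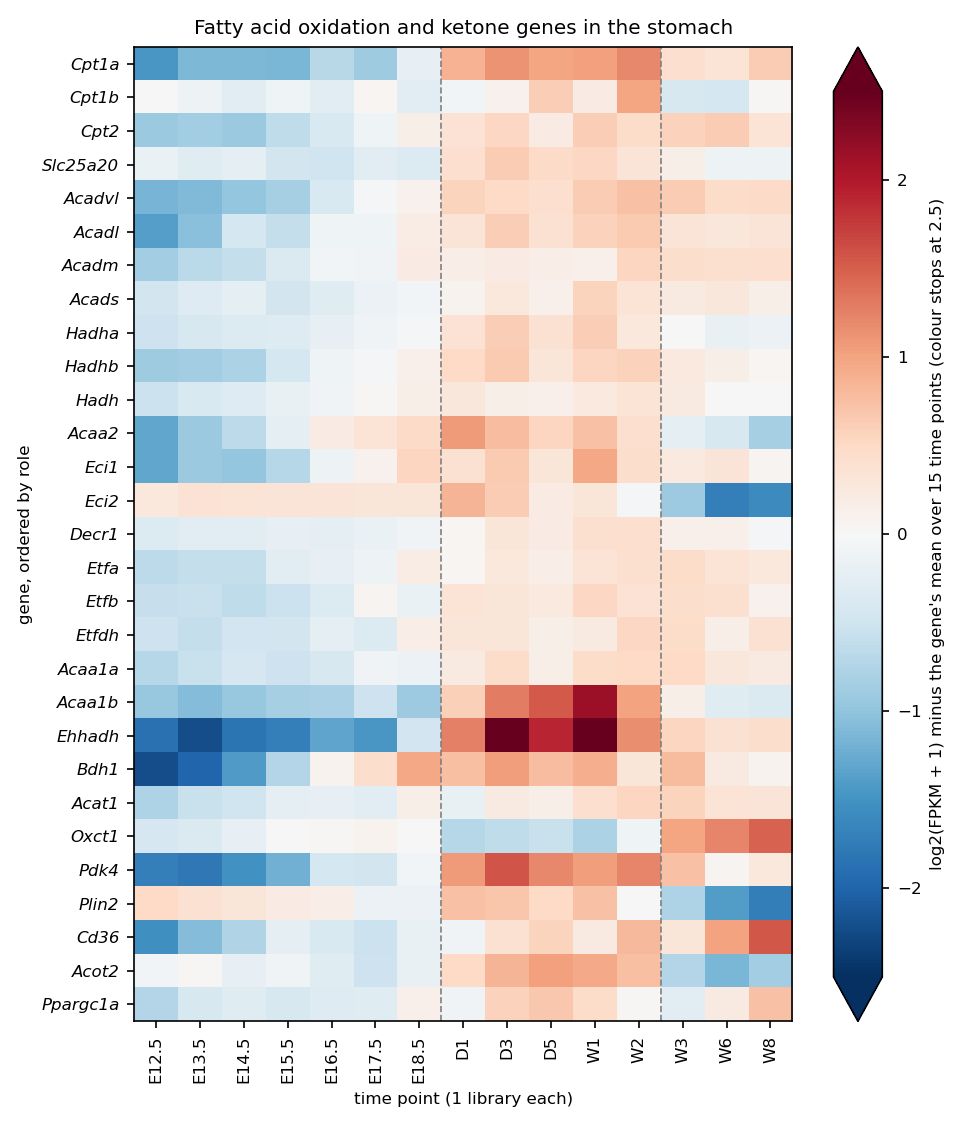
Level of each of the 29 genes (vertical axis, ordered by role) at the 15 timepoints (horizontal axis), as log2(FPKM + 1) minus the gene's own mean over all timepoints. Dashed lines mark birth and the step from W2 to W3; most genes pass from blue to red toward birth, and Oxct1, Eci2, Plin2 and Acot2 differ in their course from the rest.

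The highest FPKM fell in the early postnatal period for 22 members and in the late postnatal period for 7, and no member was highest before birth. Of all 16902 tested genes, 10811 were highest in the embryonic period, 3872 in the early postnatal period and 2219 in the late postnatal period. This order among the members depended on the scale, since after median-ratio scaling 10 members were highest in the early and 19 in the late postnatal period. The lowest FPKM was at E12.5 for 18 of the 29 genes. Peaks after scaling and lowest timepoints were not counted over all tested genes. Neither count can therefore be called particular to the members.

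Much of the rise came before birth. In 22 of the 29 genes every value from E16.5 to E18.5 lay above every value from E12.5 to E14.5, a pattern shown by 23.5% of all tested genes. Bdh1, the mitochondrial dehydrogenase that interconverts the 2 ketone bodies acetoacetate and beta-hydroxybutyrate, was 10.4-fold higher at E18.5 than at E12.5. The ratio of E18.5 to E12.5 was 7.60 for Pdk4, 3.61 for Eci1, 3.45 for Acaa2, 3.44 for Ehhadh and 3.04 for Acadl. In contrast the ratio was 0.877 for Slc25a20, 1.03 for Eci2, 1.03 for Acaa1b, 0.907 for Acot2 and 0.633 for Plin2. Each of these ratios rests on 1 library per timepoint and was not tested.

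The step from E18.5 to D1 added to this for a smaller group. Cpt1a, Slc25a20, Acaa2, Acaa1b, Ehhadh, Pdk4, Plin2 and Acot2 were up by 1.5-fold or more in FPKM + 1, 8 of 29 members against 7.21% of all tested genes, and Oxct1 was down by as much. Ehhadh had the largest member step, at 3.70 times its E18.5 level, followed by Acaa1b at 3.36 times. These steps rest on 1 library per timepoint. Between the same 2 libraries the liver genes Alb and Fgb went from 14.6 to 461 and from 1.26 to 57.4 FPKM. The part of liver RNA in the members' steps was not tested. Every early postnatal value lay above every embryonic value in 16 of the 29 genes, and the same held for 6.63% of all tested genes. Bdh1, Acat1 and Eci1, by comparison, stood at 0.861, 0.783 and 0.899 times their E18.5 level at D1.

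Between W2 and W3, Cpt1a, Cpt1b, Acaa2, Eci2, Acaa1b, Ehhadh, Plin2 and Acot2 were down by 1.5-fold or more in FPKM + 1. These were 8 of 29 members, against 15.2% of all tested genes. The median step was -0.27 for the members and -0.23 for all tested genes on the log2 scale. After median-ratio scaling, Acot2 (14.3 to 5.64) and Cpt1b (2.32 to 0.315) were still down by 1.5-fold or more. Cpt1a (65.6 to 48.0), Acaa2 (269 to 217) and Plin2 (28.3 to 20.8) then fell by less, as did Eci2, Acaa1b and Ehhadh. In FPKM, Oxct1 was up, at 2.16 times its W2 level. Every late postnatal value lay below every early postnatal value in 12 members, which is near the 46.5% of all tested genes with this pattern, and Oxct1 was the single member with every late value above every early value, a pattern of 4.9% of all tested genes.

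**Figure D2:**
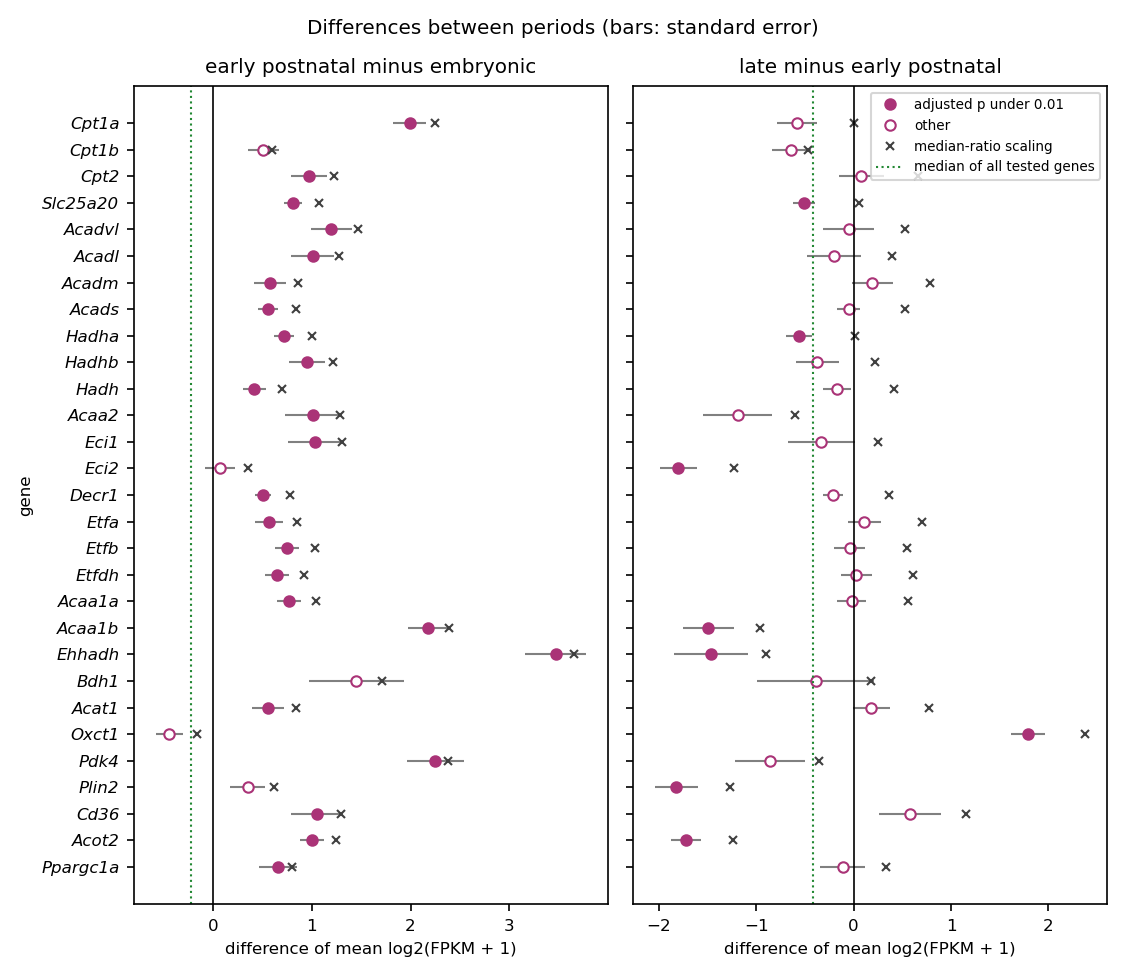
Difference of mean log2(FPKM + 1) between periods for each of the 29 genes, with bars for the standard error, filled points for an adjusted p under 0.01, crosses for the value after median-ratio scaling and a dotted line for the median of all tested genes. In the left panel 28 of 29 points lie right of 0 and in the right panel 11 points lie below the dotted line, 11 between it and 0 and 7 above 0, with Oxct1 far to the right and Eci2, Plin2 and Acot2 far to the left.

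Of the 4 carnitine shuttle genes, Cpt1a, Cpt2 and Slc25a20 rose across birth, with the largest rise in Cpt1a, and Cpt1b did not pass (adjusted p = 0.0151). Cpt1a, the CPT1 form of liver and most other tissues (chr19:3322325-3385735), ranged from 9.31 to 23.4 FPKM in the embryonic period with a median of 12.0, and stood at 50.5, 60.6, 55.0, 56.6 and 63.3 FPKM from D1 to W2 and at 36.5, 34.6 and 42.7 FPKM from W3 to W8. The periods did not overlap in FPKM, with the early postnatal values highest and the late postnatal values in between. The difference across birth was 1.99 (SE 0.17, adjusted p = 1.83e-05), and the exact two-sided permutation test over 7 and 5 timepoints gave p = 0.00253, the smallest that its 792 splits allow. At weaning age the difference was -0.58 (SE 0.21, adjusted p = 0.0315), which did not pass, and it was 0.00 after median-ratio scaling. Cpt1b, the muscle form, ranged from 0.191 FPKM at W6 to 2.24 FPKM at W2, a level of few fragments that limits what can be said of it. The annotated gene Gm44502 also overlaps Cpt1b on the same strand over 9458 bases. Cpt2 in the inner membrane rose from an embryonic median of 17.6 FPKM to an early postnatal median of 39.0 FPKM and was at 42.1, 43.8 and 35.7 FPKM in the late libraries. Slc25a20, the carnitine-acylcarnitine exchanger, was at 15.8 to 20 FPKM in all embryonic libraries, at 30.5, 35.8, 32.0, 32.6 and 28.6 FPKM in the early postnatal libraries and at 25.2, 20.6 and 20.6 FPKM in the late ones. Its early values overlapped neither period in FPKM. After median-ratio scaling they overlapped the late values, at 29.6 to 34.8 against 30.4 to 36.1. The rise of Slc25a20 of 0.81 (SE 0.09, adjusted p = 7.01e-05) was followed by a fall of 0.51 on the log2 scale (adjusted p = 0.00209), which was lost without W6 or W8 with adjusted p up to 0.0163.

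All 4 acyl-CoA dehydrogenases were higher in the early postnatal than in the embryonic period and none passed the test at weaning age. From E18.5 to D1 itself their steps were small, at 0.46 for Acadvl, 0.14 for Acadl, 0.15 for Acads and -0.05 for Acadm on the log2 scale. Acadvl, which acts on the longest mitochondrial substrates, had the largest rise of the 4 at 1.20 (SE 0.21, adjusted p = 0.000464), from an embryonic median of 31.9 FPKM to an early postnatal median of 85.6 FPKM. Acadl for long chains rose by 1.01 (SE 0.22, adjusted p = 0.00188), from 54.0 to 109 FPKM in median. Acads for short chains and Acadm for medium chains rose by 0.56 (adjusted p = 0.000526) and 0.58 (adjusted p = 0.00795). The call for Acadm was lost when any of 12 of the 15 timepoints was left out, with adjusted p up to 0.0258. All 4 stayed above their embryonic medians in the late postnatal period, with levels of 79.6 to 89.8 FPKM for Acadvl, 89.2 to 92.1 FPKM for Acadl, 56.9 to 58.4 FPKM for Acadm and 39.8 to 43.6 FPKM for Acads. Acadvl and Acadl were the 2 members with more than 1 entry in the tables, the further entry lying on an alternate scaffold, and their entries were summed.

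The trifunctional protein, which holds the hydratase, dehydrogenase and thiolase for long chains in subunits encoded by Hadha and Hadhb, also rose across birth. Hadha was at 53.6 to 75.9 FPKM in the embryonic libraries with a median of 62.0, at 99.8, 120, 101, 120 and 92.9 FPKM in the early postnatal libraries, and at 76.7, 68.2 and 70.5 FPKM in the late libraries, so that W3 lay just above the embryonic range and W6 and W8 within it. Its differences were 0.72 (SE 0.10, adjusted p = 0.000183) across birth and -0.56 (SE 0.13, adjusted p = 0.00312) at weaning age, and the latter was lost without W6 or W8 with adjusted p up to 0.0206. Hadhb rose by 0.95 (SE 0.18, adjusted p = 0.000761), and its later difference of -0.37 did not pass (adjusted p = 0.17). The 2 genes lie head to head on chromosome 5, with 272 bases between their RefSeq starts at 30154980 and 30155253. Their log2 ratio within a library was positive from E12.5 to E14.5, at 0.14 to 0.26, and negative at every later timepoint, reaching -0.40 to -0.56 from W2 to W8. The mean log2 Hadha/Hadhb was -0.07 ± 0.27 (SD, n = 7), -0.29 ± 0.17 (SD, n = 5) and -0.48 ± 0.08 (SD, n = 3) in the 3 periods, and neither difference passed an exact permutation test (p = 0.136 and 0.143).

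The thiolase Acaa2, which ends the mitochondrial spiral for medium chains, was the member with the highest level per length, at 404 FPKM at D1. It ranged from 77.8 to 269 FPKM before birth with a median of 162, stood at 404, 330, 280, 320 and 259 FPKM from D1 to W2, and at 165, 146 and 107 FPKM from W3 to W8. The late values lay below every early value and within the embryonic range. Its rise of 1.01 (SE 0.28, adjusted p = 0.00744) was lost without D1 and without any of 9 other timepoints, with adjusted p up to 0.0208, and its later difference of -1.19 (SE 0.35, adjusted p = 0.0123) did not pass. Hadh, the dehydrogenase for shorter chains, rose by 0.42 (SE 0.12, adjusted p = 0.00697), the smallest rise that passed, and this call was lost without any of 8 timepoints, with adjusted p up to 0.0205.

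Unsaturated fatty acids need auxiliary enzymes, and the 3 genes for them took different courses. Eci1, the mitochondrial enoyl-CoA isomerase, rose by 1.03 (SE 0.27, adjusted p = 0.00512; not passing without any of 6 timepoints, with adjusted p up to 0.0172), from an embryonic median of 54.6 FPKM to an early postnatal median of 124 FPKM. Decr1, the dienoyl-CoA reductase, rose by 0.51 (SE 0.08, adjusted p = 0.000362). Eci2 (chr13:34977748-35027090), an isomerase found in mitochondria and peroxisomes, was nearly level before birth at 72.1 to 77.3 FPKM. It then stood at 109, 93.9, 69.3, 74.3 and 57.8 FPKM from D1 to W2 and at 31.2, 17.6 and 19.2 FPKM from W3 to W8. Its early values straddled the embryonic range and its late values lay below all others. The difference across birth was 0.07 (SE 0.15, adjusted p = 0.702), and that at weaning age was -1.80 (SE 0.19, adjusted p = 8.43e-05), or -1.23 after median-ratio scaling (adjusted p = 0.000246). The annotated antisense gene Gm16984 overlaps Eci2 over 12705 bases, and the strand setting of the authors' counting is not given in the sources used here, so reads of the 2 genes cannot be told apart.

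The electron transfer flavoprotein and its ubiquinone oxidoreductase were higher in the early postnatal than in the embryonic period, with no passing difference at weaning age. Etfb, the beta subunit, had an embryonic median of 171 FPKM, an early postnatal median of 312 FPKM and a late postnatal median of 327 FPKM. Etfa, the alpha subunit, had medians of 116, 168 and 178 FPKM, and Etfdh, the oxidoreductase, of 20.7, 35.6 and 38.0 FPKM. The rises were 0.75 (adjusted p = 0.00039), 0.57 (adjusted p = 0.00341; up to 0.0111 without W1 or W2) and 0.65 (adjusted p = 0.000832), and the differences at weaning age of -0.04, 0.11 and 0.03 did not pass. All 3 were also higher in the late postnatal than in the embryonic period. The alpha and beta subunits had a mean log2 ratio Etfa/Etfb of -0.76 ± 0.20 (SD, n = 7), -0.94 ± 0.12 (SD, n = 5) and -0.78 ± 0.11 (SD, n = 3) in the 3 periods, and neither step passed an exact permutation test (p = 0.109 and 0.179).

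Of the 3 peroxisomal genes, Ehhadh and Acaa1b rose steeply across birth and Acaa1a by the median of all members. Ehhadh, the bifunctional hydratase and dehydrogenase of peroxisomes (chr16:21761285-21787834), ranged from 1.24 to 6.48 FPKM in the embryonic libraries with a median of 2.18. It stood at 24.0, 63.3, 38.2, 62.9 and 22.3 FPKM from D1 to W2 and at 14.1, 12.7 and 13.1 FPKM from W3 to W8. The 3 periods did not overlap, and the late values stayed above every embryonic one. The rise of 3.47 (SE 0.31, adjusted p = 2.23e-05) was the largest of any member, its means differed 15.0-fold, and the fall of 1.46 on the log2 scale (SE 0.38, adjusted p = 0.0067) was lost without any of D3, D5, W1, W3, W6 and W8, with adjusted p up to 0.0319. Acaa1b, a peroxisomal thiolase (chr9:119148043-119157093), was at 2.90 to 4.75 FPKM before birth with a median of 3.40, at 11.5, 19.2, 23.1, 35.4 and 15.7 FPKM from D1 to W2 and at 8.17, 5.72 and 5.41 FPKM from W3 to W8. It rose by 2.18 (SE 0.21, adjusted p = 2.71e-05) and fell by 1.49 (SE 0.26, adjusted p = 0.000715), again with no overlap between periods. Acaa1a, its paralog, was at 50.1 to 78.3 FPKM before birth, rose by 0.77 (SE 0.12, adjusted p = 0.000248) and was at 118, 101 and 96.6 FPKM in the late libraries. The 2 transcripts are 96.0% identical over 1450 aligned bases, so reads could be assigned to either, and the split between them is uncertain. Slc22a14 overlaps Acaa1a on the other strand over 9245 bases, and their reads cannot be told apart without strand.

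Sequences upstream of 5 genes are shown because these genes carry the contrast in course: Ehhadh, Pdk4 and Acaa1b had the 3 largest rises across birth, Acot2 rose and then fell, and Oxct1 moved against the rest. They are RefSeq sequences of GRCm38.p6, 5′ to 3′ on the gene's strand, and end before the first annotated base of the gene. For Pdk4 and Oxct1 this leaves out the last 31 and 45 bases before the RefSeq start. Capitals mark 3 short motifs on either strand, which are GGGCGG, the sequence CCAAT (or its reverse ATTGG) and the half-site AGGTCA. The Oxct1 window lies within an exon of the antisense transcript BC037032, and the others overlap no exon of GENCODE M21.
Ehhadh, largest rise across birth, chr16:21787835-21788084, minus strand: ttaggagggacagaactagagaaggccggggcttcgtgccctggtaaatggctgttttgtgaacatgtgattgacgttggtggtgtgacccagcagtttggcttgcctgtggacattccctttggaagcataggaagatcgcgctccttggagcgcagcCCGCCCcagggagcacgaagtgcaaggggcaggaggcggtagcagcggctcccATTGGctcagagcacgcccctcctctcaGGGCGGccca
Acaa1b, peroxisomal thiolase, chr9:119157094-119157343, minus strand: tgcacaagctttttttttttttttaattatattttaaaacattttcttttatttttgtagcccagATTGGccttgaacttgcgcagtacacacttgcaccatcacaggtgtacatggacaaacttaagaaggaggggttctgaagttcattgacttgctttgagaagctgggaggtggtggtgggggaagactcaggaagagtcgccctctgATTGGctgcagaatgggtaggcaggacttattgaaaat
Pdk4, pyruvate dehydrogenase kinase, chr6:5496310-5496528, minus strand: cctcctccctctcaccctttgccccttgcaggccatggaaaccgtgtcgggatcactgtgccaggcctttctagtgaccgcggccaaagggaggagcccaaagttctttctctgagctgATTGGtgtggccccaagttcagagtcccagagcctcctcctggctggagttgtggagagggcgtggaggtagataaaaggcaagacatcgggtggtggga
Acot2, mitochondrial thioesterase, chr12:83987611-83987860, plus strand: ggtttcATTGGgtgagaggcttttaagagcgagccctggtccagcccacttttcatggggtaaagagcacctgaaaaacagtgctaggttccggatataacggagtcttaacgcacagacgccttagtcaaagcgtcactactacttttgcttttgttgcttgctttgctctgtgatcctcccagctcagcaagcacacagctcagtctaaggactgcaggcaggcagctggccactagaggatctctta
Oxct1, ketone body use, chr15:4026178-4026382, plus strand: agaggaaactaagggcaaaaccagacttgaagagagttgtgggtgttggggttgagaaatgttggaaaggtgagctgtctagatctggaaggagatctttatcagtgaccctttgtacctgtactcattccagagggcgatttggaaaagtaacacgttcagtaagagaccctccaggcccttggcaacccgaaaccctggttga

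RefSeq upstream windows, of 250 bases before and 50 after the start, matched 25 of the 29 genes by symbol. Nuclear receptors of the PPAR family, which are known regulators of fat oxidation, bind a direct repeat of AGGTCA spaced by 1 base, and no member window held this exact repeat, as was true of all but 0.0444% of all 27025 windows. TNAAGGTCA, which estrogen-related receptors bind and which contains AGGTCA, was in no member window and in 1.26% of all. A single AGGTCA on either strand occurred in 5 members (Cpt1a, Acadvl, Acadm, Plin2 and Cd36) and in 16% of all windows. GGGCGG was found in 16 of the 25 windows against 35.9% of all, CCAAT in 13 against 37.9%, and TATAAA in 0 against 14.2%. Among the printed genes, Ehhadh holds both GGGCGG and CCAAT, Acaa1b, Pdk4 and Acot2 hold CCAAT, and Oxct1 holds none of the 3.

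**Figure D3:**
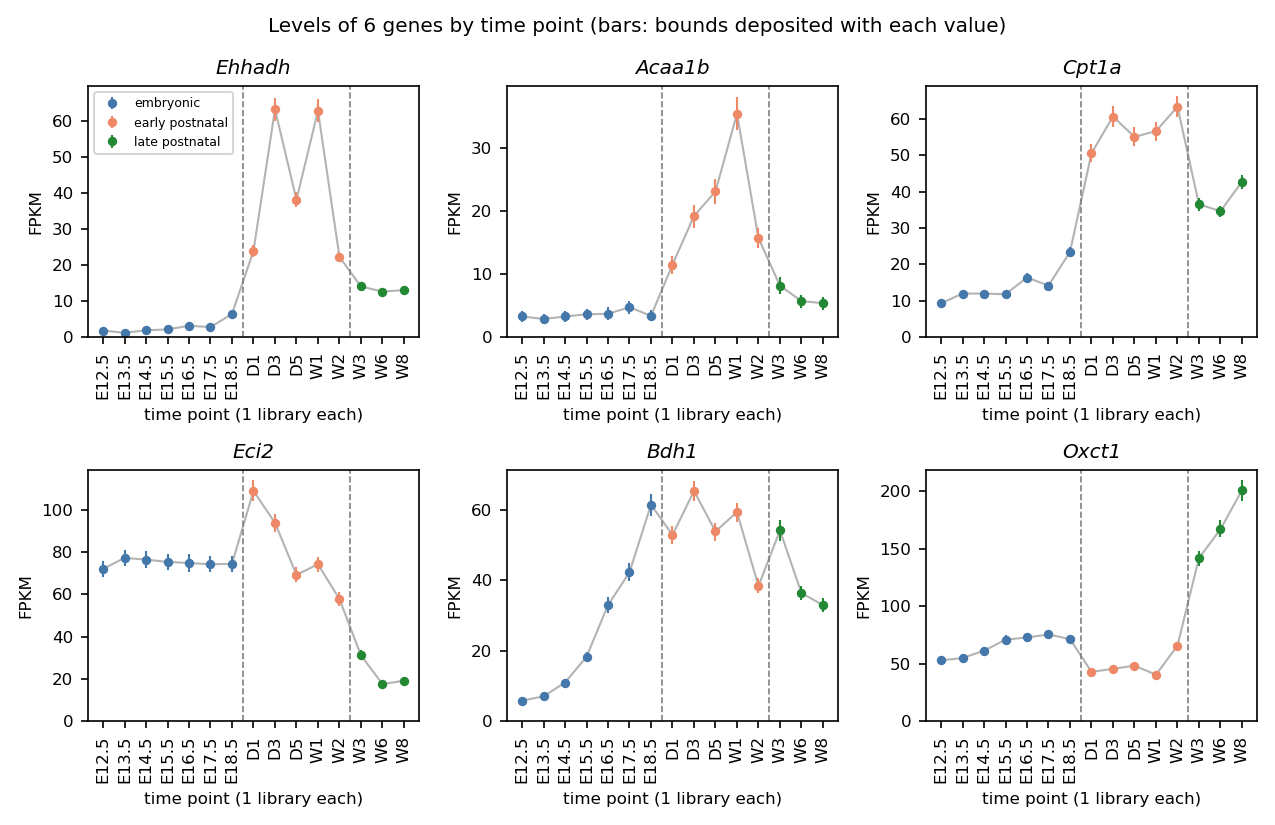
FPKM of 6 genes (vertical axis, each panel from 0) at the 15 timepoints (horizontal axis), with bars for the bounds deposited with each value and colours for the 3 periods. Ehhadh and Acaa1b are high from D1 to W2 and lower from W3, Cpt1a from W3 lies between its embryonic and early postnatal FPKM, Eci2 falls late, Bdh1 rises before birth and Oxct1 goes from 40.5 FPKM at W1 to 201 FPKM at W8.

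Of the 3 ketone body genes, Acat1 rose across birth and Oxct1 rose at weaning age, and no other difference at these steps passed. Oxct1, which activates acetoacetate for oxidation and is the defining enzyme of ketone body use (chr15:4026428-4155344), was at 53.0 to 75.5 FPKM before birth with a median of 71.0. It stood at 43.0, 45.6, 48.4, 40.5 and 65.8 FPKM from D1 to W2 and at 142, 167 and 201 FPKM from W3 to W8. The values from D1 to W1 lay below every embryonic value, W2 lay within the embryonic range and the late values lay above all others. The difference across birth was -0.44 (SE 0.14, adjusted p = 0.0142), just short of the threshold and -0.16 after median-ratio scaling (adjusted p = 0.432), and it passed when W2 or E12.5 was left out. The rise at weaning age was 1.79 (SE 0.17, adjusted p = 5.09e-05), or 2.38 after median-ratio scaling, and it passed whichever timepoint was left out. Summed markers of parietal, chief and mucous cells were also higher in the late libraries. Their sums were 845 to 2546, 18001 to 30033 and 9787 to 61397 FPKM in the early postnatal libraries. In the late ones they were 3796 to 6782, 88376 to 153567 and 119360 to 191347 FPKM. At an adjusted p under 0.01, 0 of 4 parietal, 1 of 4 chief and 3 of 6 mucous markers were higher, and 1 chief marker was lower. Smooth muscle and forestomach markers had median differences of -1.04 and -3.35. The part of these cell types in the rise of Oxct1 was not tested. Reads of Oxct1 and of the antisense transcript BC037032, which overlap over 978 bases, cannot be told apart without strand.

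Before birth Bdh1 climbed steadily, with 5.88 FPKM at its lowest, on E12.5, a value of 18.3 FPKM on E15.5 and 61.5 FPKM on E18.5. It was at 52.9, 65.4, 53.9, 59.4 and 38.4 FPKM from D1 to W2 and at 54.2, 36.4 and 33.0 FPKM from W3 to W8. Its embryonic spread was wide because of this climb, and neither the difference across birth of 1.45 (SE 0.48, adjusted p = 0.0186) nor that at weaning age of -0.39 (adjusted p = 0.593) passed. Acat1, the thiolase that makes and splits acetoacetyl-CoA, rose by 0.56 (SE 0.16, adjusted p = 0.00692; lost without any of 8 timepoints, with adjusted p up to 0.023) and was at 88.4, 76.1 and 74.2 FPKM in the late libraries. The mean log2 ratio of Oxct1 to Bdh1 within a library went from 1.74 ± 1.05 (SD, n = 7) to -0.15 ± 0.53 (SD, n = 5) and back to 2.04 ± 0.61 (SD, n = 3).

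Fuel choice, uptake and storage genes were mixed. Pdk4, a kinase that inactivates pyruvate dehydrogenase and so spares glucose, ranged from 0.400 to 3.61 FPKM before birth with a median of 1.10, and was at 9.17, 13.4, 10.1, 8.98 and 10.3 FPKM from D1 to W2 and at 7.10, 4.08 and 4.85 FPKM from W3 to W8. Its periods did not overlap in FPKM, but after median-ratio scaling W3 at 9.34 lay above D1 at 8.99. Pdk4 rose by 2.25 (SE 0.29, adjusted p = 0.000117), and the later difference of -0.86 (SE 0.36, adjusted p = 0.0556) did not pass. Cd36, a fatty acid transporter of the plasma membrane, rose by 1.05 (SE 0.26, adjusted p = 0.00356; 0.0124 without W2) and reached 16.9, 27.8 and 41.2 FPKM in the late libraries. Ppargc1a, a coactivator that promotes mitochondrial gene expression, was low throughout, at 0.645 to 3.49 FPKM, and its rise of 0.66 (SE 0.19, adjusted p = 0.00781) was lost without any of 10 timepoints, with adjusted p up to 0.0237.

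Plin2 and Acot2 ended below their embryonic levels in FPKM. Plin2, a lipid droplet coat protein, had 39.4 FPKM on E12.5 and 24.9 FPKM on E18.5. It stood at 46.4, 45.3, 39.4, 46.7 and 27.3 FPKM from D1 to W2 and at 15.8, 9.93 and 7.71 FPKM from W3 to W8. Its early values overlapped the embryonic range through W2 and D5, and its late values lay below all others. The difference across birth was 0.35 (SE 0.18, adjusted p = 0.109), or 0.62 after median-ratio scaling (adjusted p = 0.0055), and the difference at weaning age was -1.82 (SE 0.22, adjusted p = 0.00014). Acot2, a mitochondrial acyl-CoA thioesterase, was at 5.14 to 7.97 FPKM before birth, at 11.4, 14.9, 17.0, 15.9 and 13.8 FPKM from D1 to W2 and at 4.29, 3.01 and 3.83 FPKM from W3 to W8. Its periods did not overlap, with differences of 1.0 (SE 0.12, adjusted p = 9.19e-05) and -1.72 (SE 0.15, adjusted p = 1.84e-05). After median-ratio scaling its late and embryonic periods differed by 0.00 (adjusted p = 0.986), so its place below the embryonic level depended on the scale. Acot1, its cytosolic paralog with transcripts 94.3% identical over 1330 aligned bases, also fell at weaning age, by 3.38 on the log2 scale (adjusted p = 0.000113), and reads of the 2 genes may be shared.

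Ratios of (FPKM + 1) of 2 members in the same library depend little on scaling between libraries where both levels are well above 1 FPKM, which Cpt1b was not. Of 8 pairs compared at both steps by exact two-sided permutation tests, with Benjamini-Hochberg adjustment over the 16 comparisons, 6 pairs had an adjusted p under 0.05, the threshold for these exact tests, across birth. Ehhadh rose against Hadha by 2.75 (adjusted p = 0.0101), Cpt1a rose against Cpt2 by 1.02 (adjusted p = 0.0101) and against Cpt1b by 1.47 (adjusted p = 0.0101; 1.03 with a pseudocount of 0.1), and Acadl rose against Acadm by 0.42 (adjusted p = 0.0135). Acaa1a fell against Acaa1b by 1.41 (adjusted p = 0.0101) and Oxct1 fell against Bdh1 by 1.89 (adjusted p = 0.0135). Much of the fall of Oxct1 against Bdh1 lay before birth, from 2.97 at E12.5 to 0.21 at E18.5, with -0.29 at D1. At weaning age the 56 splits of 5 and 3 timepoints allow no p below 0.0357, which became 0.0519 after adjustment. The differences then were -0.90 for Ehhadh to Hadha, -0.66 for Cpt1a to Cpt2, -0.39 for Acadl to Acadm, 1.46 for Acaa1a to Acaa1b and 2.19 for Oxct1 to Bdh1, and in each of these 5 pairs every late value lay on the same side of every early value. The ratio of Cpt1a to Cpt1b differed by 0.05 at weaning age with a pseudocount of 1 and by 0.84 with 0.1, so it depended on the pseudocount.

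**Figure D4:**
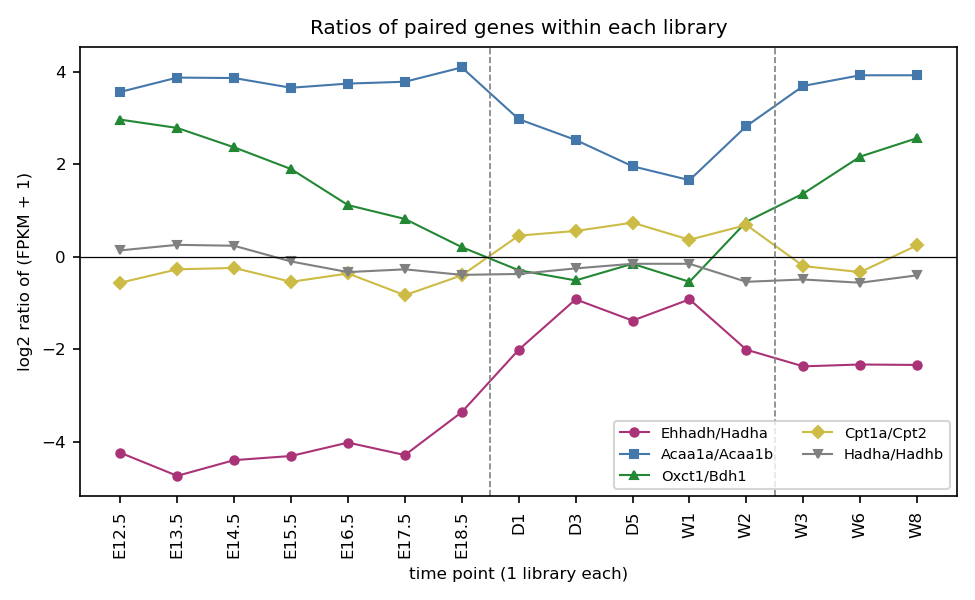
Log2 ratio of (FPKM + 1) of 5 gene pairs (vertical axis) at each of the 15 timepoints (horizontal axis), with dashed lines between E18.5 and D1 and between W2 and W3. Ehhadh relative to Hadha goes up after birth, and Acaa1a relative to Acaa1b dips and returns. Oxct1 relative to Bdh1 falls before birth, from 2.97 at E12.5 to 0.21 at E18.5, and returns to 2.57 at W8. Hadha relative to Hadhb goes from 0.26 at E13.5 to -0.56 at W6.

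Other genes of the same pathways are given by counts, to be read against the shares of all tested genes, which were 10.8% higher and 30.6% lower across birth and 2.57% higher and 28.9% lower at weaning age. Of 19 tested further genes of peroxisomal oxidation, 10 rose across birth and 0 fell, among them Phyh, which starts the breakdown of branched phytanic acid (1.95, adjusted p = 0.000285). At weaning age 1 of the 19 rose, Phyh by a further 1.86, and 7 fell, among them Crot (-1.16, adjusted p = 0.00321; -0.60 and adjusted p = 0.13 after median-ratio scaling), while after median-ratio scaling 5 rose and 1 fell. Of 23 further genes of mitochondrial fatty acid and branched acyl-CoA oxidation, 7 rose and 0 fell across birth, and 9 rose and 1 fell at weaning age, or 15 and 0 after median-ratio scaling. Acacb, which makes the malonyl-CoA that inhibits CPT1, rose at both steps, by 1.48 and 1.47, and the carnitine transporter Slc22a5 was the gene that fell (-0.66, adjusted p = 0.00215; -0.14 after median-ratio scaling).

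Among 27 further genes of fatty acid uptake, activation, storage and release, 17 rose and 2 fell across birth, and 3 rose and 5 fell at weaning age. Fabp1 and Fabp3, binding proteins for fatty acids in the cytosol, rose most, by 3.95 and 3.84. Angptl4, an inhibitor of lipoprotein lipase, fell by 3.43 at weaning age (adjusted p = 8.43e-05) while Lpl, the lipase itself, rose by 1.51. Of 9 further ketone body genes, 3 rose and 2 fell across birth, Slc16a7, a carrier of monocarboxylates, by 1.53 among the former and Acat2, the cytosolic acetoacetyl-CoA thiolase, by -1.23 among the latter. At weaning age 1 of the 9 rose, Slc16a7 by 1.24, and 1 fell.

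The 13 genes of the pyruvate dehydrogenase complex and its regulators held 2 that rose and 4 that fell across birth, or 3 and 1 after median-ratio scaling. Pdk2, a kinase like Pdk4, rose by 0.64, whereas Pdk1 fell by 0.57 and the phosphatase subunit Pdp2 by 0.77. At weaning age 2 of the 13 rose, the pyruvate carriers Mpc1 and Mpc2 by 0.86 and 0.70, and 1 fell. After median-ratio scaling 8 of the 13 rose and 0 fell. Of 19 regulators of oxidation genes, 5 rose and 4 fell across birth, or 5 and 2 after median-ratio scaling. The estrogen-related receptors Esrra (0.84, adjusted p = 0.00771) and Esrrg (1.16, adjusted p = 0.0089) were among those that rose. At weaning age 2 rose and 4 fell, with Klf15 up by 1.35 and Pprc1 down by 0.84. After median-ratio scaling 5 rose and 0 fell at weaning age. Rxrb fell by 0.55 at weaning age on the FPKM scale and differed by 0.02 after median-ratio scaling.

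Markers of several cell types were also higher in the early postnatal than in the embryonic period, though not all rose after birth. Marker lists of the stomach's own cell types had median differences across birth of 4.64 for the 6 mucous and 4.11 for the 4 tested chief markers. The medians were 3.62 for the 4 parietal, 1.92 for the 5 forestomach and 1.20 for the 6 smooth muscle markers, against 0.77 for the members. At an adjusted p under 0.01, 5 mucous, 4 chief, 3 parietal, 1 forestomach and 1 smooth muscle marker were higher. In these lists 0 markers were lower. The forestomach sum was already at 6137 to 8867 FPKM from E16.5 to E18.5. It was 8803 FPKM at D1 and 1496 to 2670 FPKM from D3 to W2. The summed level of 7 adipose markers was 15.4 to 95.6 FPKM before birth and 102 to 320 FPKM in the early postnatal libraries. It was 100 to 204 FPKM in the late ones, and most of it came from Fabp4. Cidec was at no more than 4.35 FPKM before birth and at 8.28 to 17.9 FPKM from D1 to W2. Adipoq was at 0 at D1 and D3 and at 1.46 to 2.4 FPKM from D5 to W2, and Lep reached no more than 0.0464 FPKM. Cfd and Retn were highest at W3, at 11.2 and 5.73 FPKM. Of the 2 brown adipose markers, Ucp1 was at no more than 0.328 FPKM. Cidea was at no more than 1.12 FPKM before birth, 4.13 to 9.65 FPKM from D1 to W2 and 0.942 to 3.91 FPKM later. The summed level of 6 intestinal enterocyte markers was 3.22 to 48.8 FPKM before birth and 68.7 to 202 FPKM in the early postnatal libraries. In the late libraries this sum was 108 to 148 FPKM. Fabp1 stood at 119, 151, 55.7, 98.2 and 11.5 FPKM from D1 to W2. In the same libraries Apoa4 was at 8.7 to 50.5 FPKM, Fabp2 at 4.08 to 15.3 FPKM and Vil1 at 10.2 to 22.0 FPKM. Lct was at 0.427 to 3.47 FPKM and Cdx1 at 0.0297 to 0.0943 FPKM. The liver list summed to 1369 FPKM at D1 and 267 to 637 FPKM in the other early postnatal libraries, and Fgb, which liver makes, was at 57.4 FPKM at D1 and no more than 1.85 FPKM in the others. At D3 Alb and Afp were at 25.8 and 22.3 FPKM. The list's late sums of 1511 to 2403 FPKM came mostly from Apoa1, at 1259 FPKM or more. At W3, however, 8 of the 11 liver markers were at 1 FPKM or more. Alb was at 65.4 FPKM there, against 1.81 FPKM at W2 and 0.869 FPKM at W6. The part of these cells in the members' rise was not tested.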

How the data were processed

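Per the labels, RNA of whole C57BL/6 stomachs was sequenced at 15 timepoints with 1 library each, while 1 passage of the study's methods names liver as the RNA source. Levels were deposited by the authors as FPKM, each gene entry having a lower and an upper bound. Their methods describe HISAT2 and StringTie on GRCm38, the submitters' processing notes name Bowtie 0.12.2 and FastQC, and the files have the layout of Cufflinks gene tables, so the tools behind the values are uncertain. FPKM of entries sharing a symbol were summed. Starts were counted from 1.

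Genes reaching 1 FPKM at any timepoint were compared on log2(FPKM + 1), which understates changes of low genes, with limma 3.58.1 in R 4.3.3 fitted to 3 period means, and Benjamini-Hochberg adjustment at 0.01. A period mean treats timepoints as replicates, so p-values measure the spread between timepoints. Single genes and gene pairs were compared with exact permutation tests (SciPy 1.17.1). Identities were computed with Biopython 1.88 on the longest coding transcripts of GENCODE M21. Depth per library is not given in the sources used here, and the deposited bounds cover counting error only.

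The members, periods and gene lists were chosen with earlier results of these data known. Of the further pathway genes, up to 2 per direction with the largest passing difference in each list were to be named, and some results under this rule are not reported here. The fit was tested on simulated data. Alternatives were another pseudocount, FPKM limit, scaling, period assignment, variance trend and threshold, the first entry of each symbol, and leaving out each timepoint. RNA was compared within this series only, and the proteome was not analysed here.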

Additional observations from a re-analysis of the deposited data

Results flagged for a closer look

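Acadm stood at 62.1 FPKM at W2, apart from the other 4 early postnatal timepoints at 46.6 to 49.1 FPKM. The gap was 0.821 of the period's range on the log2(FPKM + 1) scale, above the 95% critical value of Dixon's test. This was 1 result out of 58 gene and period combinations examined, and chance alone would give about 1 in 20. Without W2 the difference of Acadm across birth no longer passed.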

How the results depend on the processing

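Across birth the 24 members higher became 19 to 26 under other pseudocounts, FPKM limits, scalings and period assignments and 17 to 25 when 1 timepoint was left out (17 without W1 or W2). The members lower were 1 (Oxct1) at an adjusted p under 0.05 and 0 to 1 when 1 timepoint was left out. The 7 members lower at weaning age were 3 after median-ratio scaling, 3 after quantile normalization, 4 by the protein phases of the study and 4 to 9 when 1 timepoint was left out. The 14 members higher over the whole course were 23 after median-ratio scaling and 22 after quantile normalization.

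Over all tested genes, those higher across birth were 2865 at an adjusted p under 0.05 and 2875 after median-ratio scaling, with 2535 lower. Those higher at weaning age were 829 at 0.05, 2112 after median-ratio scaling, 1376 after quantile normalization, 693 by the protein phases and 169 to 573 with 1 timepoint left out. Those lower were 7891, 1305 and 896 under the first 3 of these, and 1359 (without W6) to 5660 with 1 timepoint left out. Over the whole course 4758 and 3853 were higher and 4336 and 4835 lower after median-ratio scaling and quantile normalization.

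Signs turned mostly for small differences. After median-ratio scaling those at weaning age became 0.02 for Hadha and Rxrb, 0.06 for Slc25a20, 0.18 for Bdh1, 0.22 for Hadhb, 0.25 for Eci1, 0.33 for Ppargc1a, 0.36 for Decr1, 0.39 for Acadl, 0.42 for Hadh, 0.53 for Acads and Acadvl, 0.55 for Etfb and 0.56 for Acaa1a. After quantile normalization they became 0.04 for Pdp1, 0.12 for Decr1, 0.13 for Acaa1a, 0.14 for Acadvl, 0.17 for Acads and 0.5 for Ppargc1a. By the RNA phases they were 0 for Acads, 0.03 for Acadvl, 0.04 for Etfb and 0.06 for Acaa1a, and by the protein phases 0.01 for Ppargc1a, 0.06 for Acads, 0.07 for Etfb, 0.1 for Acadvl and 0.11 for Acaa1a. Over the whole course median-ratio scaling gave 0 for Acot2, 0.13 for Cpt1b and 0.69 for Acaa2, quantile normalization 0.03, 0.2 and 0.01, and the protein phases 0.1 for Acaa2. With 1 timepoint left out, differences at weaning age ran from -0.11 to 0.04 for Acaa1a, -0.1 to 0.02 for Acads, -0.11 to 0.07 for Etfb, -0.03 to 0.13 for Etfdh, -0.35 to 0.14 for Ppargc1a and -0.07 to 0.14 for the ratio of Cpt1a to Cpt1b, and that of Eci2 across birth from -0.04 to 0.18. The scalings set the median gene near 0 by construction, and the cause of the other changes was not tested.

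No paired analysis was possible because replicate numbers here are the order of timepoints within a period and pair no animals. With 1 library per timepoint, differences between animals were not measured. Levels under 1 FPKM, as for Cpt1b and early Pdk4, rest on few fragments.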
